A study of Homo sapiens with 9 samples.

Results

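Nicotinamide N-methyltransferase (NNMT) and 8 further genes of NAD metabolism were followed in the human fusion-positive rhabdomyosarcoma (FP-RMS) cell line Rh30, which expresses the PAX3-FOXO1 fusion protein. The 9 genes were measured by 26 of the 54613 probe sets of an Affymetrix U133 Plus 2.0 array, out of 19775 genes with a probe set of their own. Members were all probe sets whose single gene symbol in the annotation of the array is NNMT, NAMPT, NAPRT, NADK, NMNAT1, NMNAT2, QPRT, CD38 or SIRT1, and none of the 26 was annotated to a second gene. NNMT was put forward because of its place among the genes that were lowest in xenografts against adherent cells, so its values in xenografts are given as a description, with no test. The array holds short human probes, and each probe set gives 1 value per array on a log2 scale, so that a difference of 1 is a doubling of the probe signal.

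Rh30 cells were grown as xenografts in immunodeficient SCID/beige mice, as spheres, or as adherent monolayers, with 3 arrays from each and the same cell line and fusion gene in all 9. Spheres were grown in Neurobasal media with insulin at 50 µg/ml, EGF at 40 ng/ml, bFGF at 80 ng/ml and B27 at 1X, and adherent cells in a medium with serum. According to the methods, the sphere RNA for the arrays was taken after only days in sphere culture. The labels place the xenografts under the skin of the flank in Matrigel and name adherent or sphere cells as their source. For the microarray study itself, the methods instead state that adherent cells were placed in the calf muscle. They give the flank grafts in Matrigel for a separate tumor assay. Since labels and methods differ, the route and the starting culture are not settled here. Rh30 is a single line, and mouse cells in a xenograft could reach the human probes only by cross-hybridisation. Array medians lay between 4.78 and 4.87, and arrays of 1 group correlated at 0.990 to 0.998. Genes typical of FP-RMS were bright in every group: over 9 of them the mean level was 9.97 to 10.11 across xenograft arrays, 9.36 to 9.42 across sphere arrays and 9.97 to 10.07 across adherent arrays. In spheres 5 of these 9 genes were called lower than in adherent cells and 0 higher. The differences of the 9 ran from -1.43 to -0.05, with a median of -0.38. By the same threshold 16.3% of all genes were lower and 13.5% higher in that comparison.

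NAD is the electron carrier of central metabolism and is also consumed by enzymes that cleave it to nicotinamide, so cells have to rebuild it. Mammalian cells recycle nicotinamide through NAMPT, use nicotinic acid through NAPRT, and can start from tryptophan by way of quinolinic acid and QPRT. The NMNAT enzymes complete the dinucleotide and NADK phosphorylates it to NADP. CD38 and the sirtuins consume NAD, and NNMT diverts nicotinamide from recycling by attaching a methyl group from S-adenosylmethionine, which links the pathway to the methionine cycle. NNMT is best known from liver, adipose tissue and fibroblasts, and from several kinds of tumor.

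NAMPT and QPRT, enzymes of different entry routes into NAD, gave the clearest tested differences among the members, in opposite directions in spheres. Their promoters, which differ in base composition, are shown, and no link between sequence and expression was tested. Of the 9 members, 7 had an entry in the RefSeq promoter table for GRCh38.p14. The sequences are the 250 bases before the start of transcription, 5′ to 3′ on the strand of the gene, with the GC box (GGGCGG, searched on both strands) in capitals. They lie at chr7:106284984-106285233 on the minus strand for NAMPT, and at chr16:29678758-29679007 on the plus strand for the outermost of 2 starts of QPRT.
NAMPT: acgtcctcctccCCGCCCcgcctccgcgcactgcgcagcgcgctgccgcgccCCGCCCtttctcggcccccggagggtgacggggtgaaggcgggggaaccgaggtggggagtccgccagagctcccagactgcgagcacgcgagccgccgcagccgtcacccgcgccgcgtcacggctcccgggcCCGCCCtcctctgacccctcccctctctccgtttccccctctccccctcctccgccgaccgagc
QPRT: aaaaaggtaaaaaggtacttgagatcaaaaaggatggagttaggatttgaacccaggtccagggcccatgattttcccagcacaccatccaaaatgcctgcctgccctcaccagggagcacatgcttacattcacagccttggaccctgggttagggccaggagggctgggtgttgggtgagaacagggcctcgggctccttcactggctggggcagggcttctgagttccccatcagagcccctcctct
The NAMPT window holds 34 CpG dinucleotides, more than 93.2% of the 35116 promoters in the table, and 3 GC boxes. The QPRT window holds 1 CpG, more than 6.06% of promoters, and no match to the GC box. SIRT1, which passed no test, has 32 CpG and 4 GC boxes in its window. The median promoter holds 11 CpG, and 42.6% of all promoters of this length contain at least 1 GC box, so a match as such is common. The share with 3 was not counted. The arrays do not measure binding or methylation, and no use of these letters in Rh30 cells was tested.

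NNMT was bright in both cultures and dim in the xenografts. Its brightest probe set, 202237_at, read 4.28, 4.57 and 4.25 in xenografts, 8.88, 8.74 and 8.82 in spheres, and 9.11, 9.16 and 9.14 in adherent cells. The 3 groups did not overlap, and the xenograft arrays lay at least 4.17 below the lowest sphere array. The difference of xenografts against adherent cells was -4.77, number 3 from the lowest among 19775 genes, which is the value by which NNMT was chosen. The measured probe signal was 27.3 times lower, a ratio that includes whatever background remains in the values. Against spheres the difference was -4.45 and the measured signal 21.8 times lower. The median difference among probe sets as bright as it was -0.14 and -0.09 in these comparisons.

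The other NNMT probe sets gave smaller differences in the same direction. Probe set 202238_s_at read 4.49, 5.19 and 4.96 in xenografts, 7.37, 7.26 and 7.36 in spheres, and 7.75, 7.75 and 7.80 in adherent cells. Its xenograft difference was -2.89 against adherent cells and -2.45 against spheres. Probe set 231559_at, dim in every group, read 4.98, 4.49 and 5.25 in xenografts, 5.35, 5.05 and 5.16 in spheres, and 5.77, 5.50 and 5.43 in adherent cells. For it the difference was -0.66 against adherent cells and -0.28 against spheres, and only in the second of these did the groups overlap. Where the 3 probe sets lie along the NNMT transcript was not examined.

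The xenograft level of NNMT was set beside those of 11 genes that belong to other tissues. Their xenograft means ran between 2.35 and 8.77 with a median of 3.66, and 5 of the 11 were higher than the 4.37 of NNMT probe set 202237_at. The highest, prolactin, was called higher in xenografts than in adherent cells by 2.08, and the levels of NNMT probe set 202238_s_at in spheres (7.33) and adherent cells (7.77) also lie within this range, so a place within it does not show that a gene is silent. How much of the remaining signal came from NNMT RNA was not measurable. In bulk samples fewer cells with NNMT and less NNMT RNA per cell cannot be told apart.

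**Figure D1:**
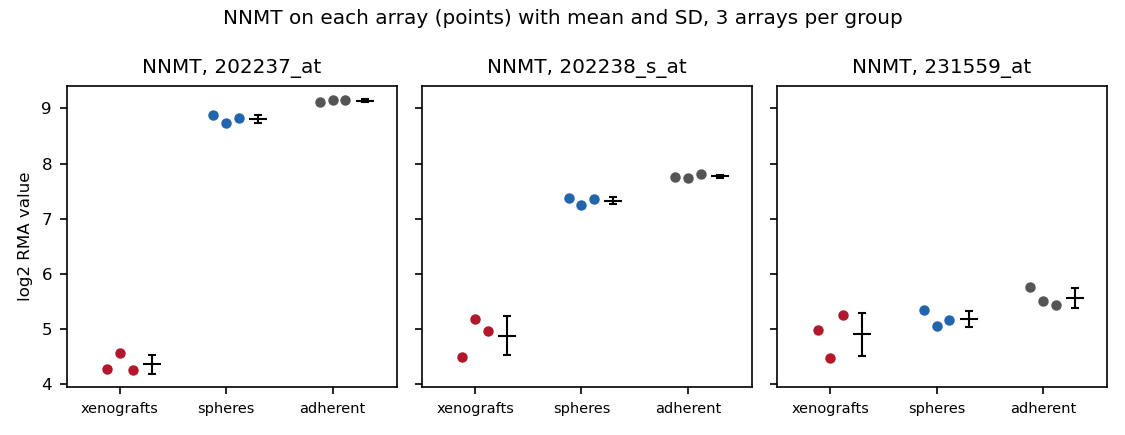
Log2 RMA value (vertical axis) of the 3 NNMT probe sets on each array, by group, with the group mean and SD beside the points. For 202237_at the xenograft arrays sit between 4.25 and 4.57, and the sphere and adherent arrays between 8.74 and 9.16.

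Spheres against adherent cells was tested, since NNMT was not chosen on it. NNMT was lower in spheres by both brighter probe sets, with a difference of -0.32 ± 0.10 for 202237_at (SE, adjusted p = 0.0356) and -0.44 ± 0.15 for 202238_s_at (adjusted p = 0.0478), a signal 1.25 and 1.35 times lower. Probe set 231559_at gave -0.38 ± 0.17 and was not called (adjusted p = 0.144). All 3 sphere arrays were below all 3 adherent arrays for each of the 3 probe sets, as was the case in 41.6% of all probe sets in either direction. The call for 202237_at was lost when adherent array 1, 2 or 3 or sphere array 2 or 3 was left out (adjusted p 0.0781 to 0.122), and that for 202238_s_at when any 1 of the 6 arrays was left out (adjusted p 0.0813 to 0.140). The adherent arrays are the same ones against which the xenografts were set.

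Of the 8 members other than NNMT, 23 probe sets were tested. In spheres against adherent cells 8 of them were called higher and 2 lower at an adjusted p under 0.05, where 13.3% of all probe sets were called higher and 12.6% lower. In xenografts against adherent cells 7 were called higher and 1 lower, with 9.78% and 13.2% called over all probe sets. In xenografts against spheres 5 were called higher and 6 lower, with 20.6% and 18.5% over all probe sets. Several of these counts rest on single arrays: the 7 became 3, 2 and 1 without adherent array 1, 2 and 3 and 4 without xenograft array 3, which also raised the 1 to 2, and the 5 became 2 without sphere array 3. The arrays of the groups compared did not overlap for 12, 13 and 14 of the 23 in the same order of comparisons, and over all probe sets for 41.6%, 38.5% and 47.4%. The median difference of the 23 was 0.09, 0.16 and 0.04 in these comparisons, and over all probe sets it was -0.02, 0.07 and 0.10. Probe sets of 1 gene are not independent of each other. Of the 23, 6 are for NADK and 4 for NAMPT, and all 4 of NAMPT were called higher in spheres. With each of the 8 members taken by its brightest probe set, 2, 2 and 1 were called higher and 1, 0 and 2 lower in the same order of comparisons. Over all genes 13.5%, 12.6% and 25.7% were called higher and 16.3%, 14.3% and 18.3% lower.

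**Figure D2:**
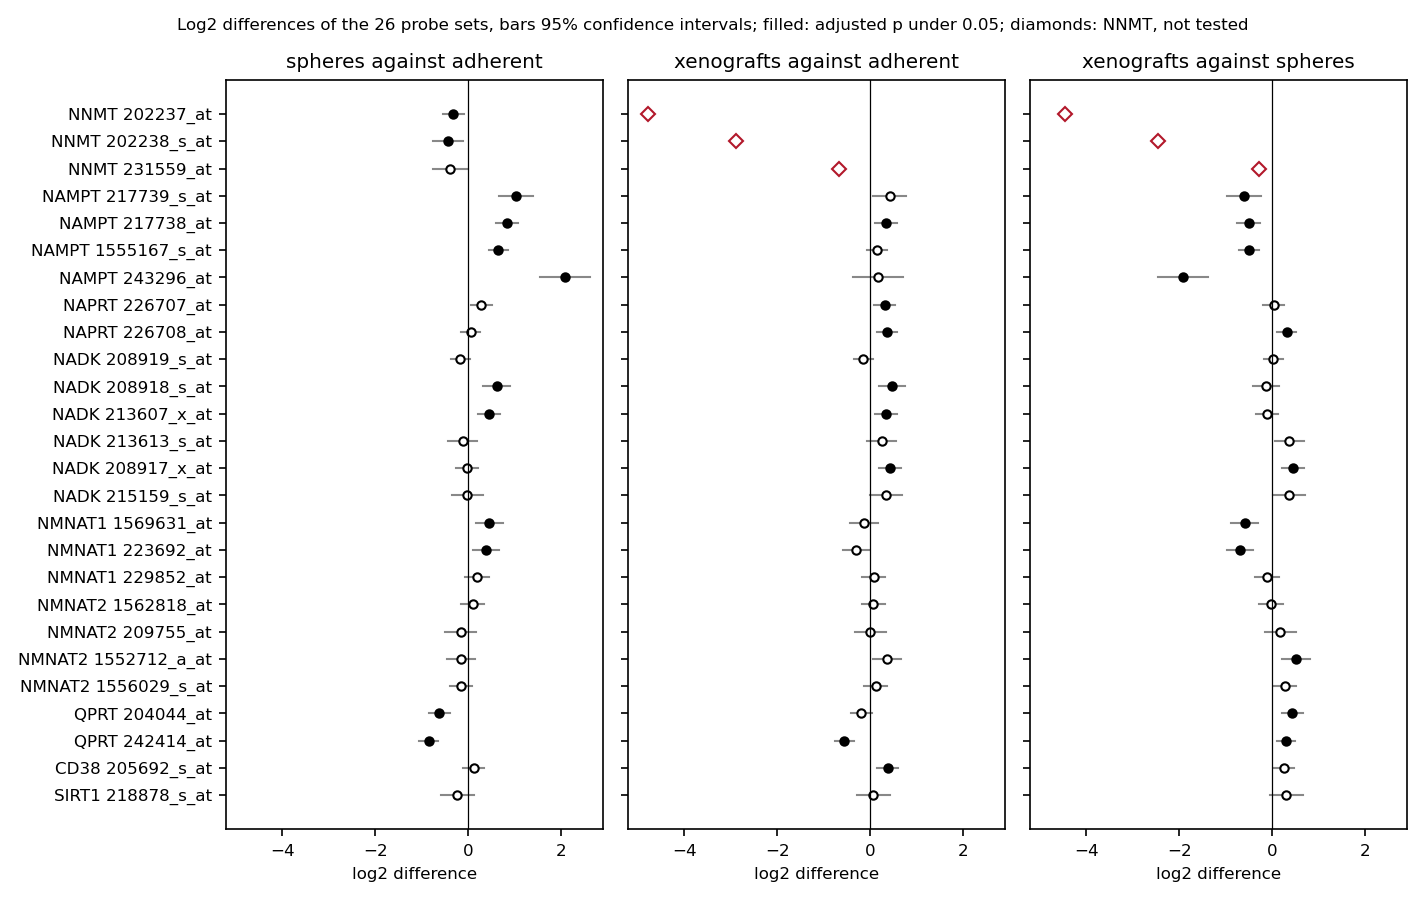
Log2 difference (horizontal axis) of each of the 26 member probe sets in the 3 comparisons, with 95% confidence intervals. Filled points passed an adjusted p under 0.05, and open diamonds mark the NNMT values that were given without a test. The 4 NAMPT probe sets lie to the right in spheres against adherent cells and both QPRT probe sets to the left.

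NAMPT, the rate-limiting enzyme that turns nicotinamide into nicotinamide mononucleotide, was higher in spheres by all 4 of its probe sets. The brightest, 217739_s_at, read 8.53, 8.21 and 8.07 in xenografts, 8.53, 9.03 and 9.07 in spheres, and 7.69, 8.06 and 7.81 in adherent cells. Every sphere array was above every adherent array, and sphere array 1 stood level with xenograft array 1. The difference of spheres against adherent cells was 1.02 ± 0.17 (95% confidence interval 0.66 to 1.38, 2.03-fold, adjusted p = 0.000642). Probe set 217738_at rose by 0.84 ± 0.11 (adjusted p = 0.000127) and 1555167_s_at by 0.65 ± 0.10 (adjusted p = 0.000355).

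The dimmest NAMPT probe set had the largest rise. Probe set 243296_at read 5.19, 5.19 and 4.60 in xenografts, 6.25, 7.36 and 7.12 in spheres, and 4.76, 4.80 and 4.92 in adherent cells. All 3 sphere arrays stood apart from the other 6, and sphere array 1 was the lowest of the 3 for each of the 4 NAMPT probe sets. The difference was 2.08 ± 0.24 against adherent cells (4.23-fold, adjusted p = 6.13e-05). The 4 rises kept an adjusted p under 0.05 in all 13 alternatives, between 6.62e-06 and 0.0382. NAMPT ranked 579 from the highest of 19775 genes in this comparison.

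By group means, NAMPT in xenografts lay between the cultures. Xenografts were lower than spheres by -0.60 ± 0.17 for 217739_s_at (adjusted p = 0.0133), -0.51 ± 0.11 for 217738_at (adjusted p = 0.00339), -0.50 ± 0.10 for 1555167_s_at (adjusted p = 0.00165) and -1.92 ± 0.24 for 243296_at (adjusted p = 8.82e-05). For 217739_s_at the call was lost without sphere array 2 or 3 or xenograft array 3 (adjusted p 0.0512 to 0.0616). It was also lost with the methods' t-test (adjusted p = 0.138). Against adherent cells the 4 differences were 0.42, 0.33, 0.15 and 0.16 in the same order. Only that of 217738_at was called (adjusted p = 0.0464), and the call was lost without adherent array 1 or 3 or xenograft array 1 or 3 (adjusted p 0.0732 to 0.158) and after centring each array on its median (0.110).

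NAPRT, which starts the route from nicotinic acid, moved little. Probe set 226707_at read 6.86, 6.88 and 7.19 in xenografts, 6.98, 6.92 and 6.93 in spheres, and 6.63, 6.65 and 6.73 in adherent cells. All xenograft and sphere arrays were above all adherent arrays, but by small amounts. The difference was 0.31 ± 0.10 for xenografts (adjusted p = 0.0499) and 0.28 ± 0.10 for spheres (adjusted p = 0.0750, not called). The xenograft call was lost in 9 of 13 alternatives, including without adherent array 1, 2 or 3 or xenograft array 3 (adjusted p 0.0908 to 0.132). The dim probe set 226708_at read 3.64, 3.68 and 3.80 in xenografts, 3.33, 3.44 and 3.41 in spheres, and 3.44, 3.37 and 3.22 in adherent cells. It was higher in xenografts than in adherent cells by 0.36 ± 0.09 (adjusted p = 0.0170) and than in spheres by 0.31 ± 0.09 (adjusted p = 0.0225). The median of equally dim probe sets was 0.13 and 0.16 in these comparisons. After quantile normalization neither was called (adjusted p 0.0625 and 0.0821). Without adherent array 3 the call against adherent cells was lost (adjusted p = 0.0811). That against spheres was lost without sphere array 1 or 3 or xenograft array 3 (adjusted p 0.0576 to 0.0652).

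NMNAT1, the nuclear enzyme that joins the mononucleotide to ATP, was highest in spheres. Probe set 1569631_at read 5.36, 4.96 and 5.20 in xenografts, 5.91, 5.69 and 5.70 in spheres, and 5.47, 5.08 and 5.38 in adherent cells. Sphere arrays lay above the other 6, whereas xenograft and adherent arrays overlapped. Spheres exceeded adherent cells by 0.46 ± 0.13 (adjusted p = 0.0250), and xenografts differed from spheres by -0.59 ± 0.13 (adjusted p = 0.00466) and from adherent cells by -0.13 (95% confidence interval -0.43 to 0.16).

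A second NMNAT1 probe set, 223692_at, gave the same order. It read 4.77, 4.50 and 4.86 in xenografts, 5.40, 5.18 and 5.61 in spheres, and 5.07, 5.07 and 4.92 in adherent cells. Xenografts were lower than spheres by -0.69 ± 0.13 (adjusted p = 0.00135), and spheres exceeded adherent cells by 0.38 ± 0.13 (adjusted p = 0.0492). The rise in spheres over adherent cells was the less stable: it was lost in 9 of 13 alternatives for 223692_at, including without adherent array 1, 2 or 3 or sphere array 1 or 3 (adjusted p 0.0898 to 0.206), and for 1569631_at without adherent array 2 or 3 or sphere array 1 (0.0509 to 0.114). With the methods' t-test the calls of xenografts against spheres were lost as well (adjusted p = 0.0605 for 1569631_at and 0.0622 for 223692_at). The third probe set, 229852_at, had levels of 4.13 to 4.53 and passed no test.

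NMNAT2, the cytosolic form best known from axons, was dim. Its brightest probe set, 1562818_at, read 4.45, 4.86 and 4.62 in xenografts, 4.71, 4.67 and 4.62 in spheres, and 4.52, 4.49 and 4.73 in adherent cells, and the groups overlapped in all 3 comparisons. The other 3 probe sets had group means of 2.53 to 3.44. Of the 12 tests on NMNAT2, 1 passed: 1552712_a_at was higher in xenografts than in spheres by 0.51 ± 0.13 (adjusted p = 0.0105), with 3.07, 3.52 and 3.21 in xenografts and 2.87, 2.80 and 2.58 in spheres. That call was lost without sphere array 3 (adjusted p = 0.0517) and with the methods' t-test (0.102). The median of equally dim probe sets was 0.15 in that comparison.

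QPRT, the enzyme that brings quinolinic acid from tryptophan breakdown into NAD synthesis, was lowest in spheres. Probe set 204044_at read 9.13, 9.25 and 9.48 in xenografts, 8.86, 8.88 and 8.83 in spheres, and 9.48, 9.41 and 9.55 in adherent cells. Probe set 242414_at read 8.96, 8.89 and 9.08 in xenografts, 8.77, 8.68 and 8.59 in spheres, and 9.53, 9.49 and 9.59 in adherent cells. For both probe sets the sphere arrays lay below the other 6. The difference of spheres against adherent cells was -0.62 ± 0.10 for 204044_at (95% confidence interval -0.85 to -0.40, adjusted p = 0.000754) and -0.85 ± 0.09 for 242414_at (-1.06 to -0.65, adjusted p = 3.47e-05), a signal 1.54 and 1.81 times lower. Neither call was lost in any of 13 alternatives, where the adjusted p lay between 5.13e-06 and 0.00561.

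The QPRT probe sets parted in xenografts. Against adherent cells 242414_at fell by 0.56 ± 0.09 (adjusted p = 0.00128), whereas 204044_at gave -0.20 ± 0.10 with overlapping groups (adjusted p = 0.194). Against spheres both were higher, by 0.43 ± 0.10 (adjusted p = 0.00681) for 204044_at and 0.30 ± 0.09 (adjusted p = 0.0252) for 242414_at. The last of these calls was lost without sphere array 2 or 3 or xenograft array 3 (adjusted p 0.0613 to 0.102). With the methods' t-test both calls against spheres were lost (adjusted p = 0.0656 for 204044_at and 0.0719 for 242414_at).

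**Figure D3:**
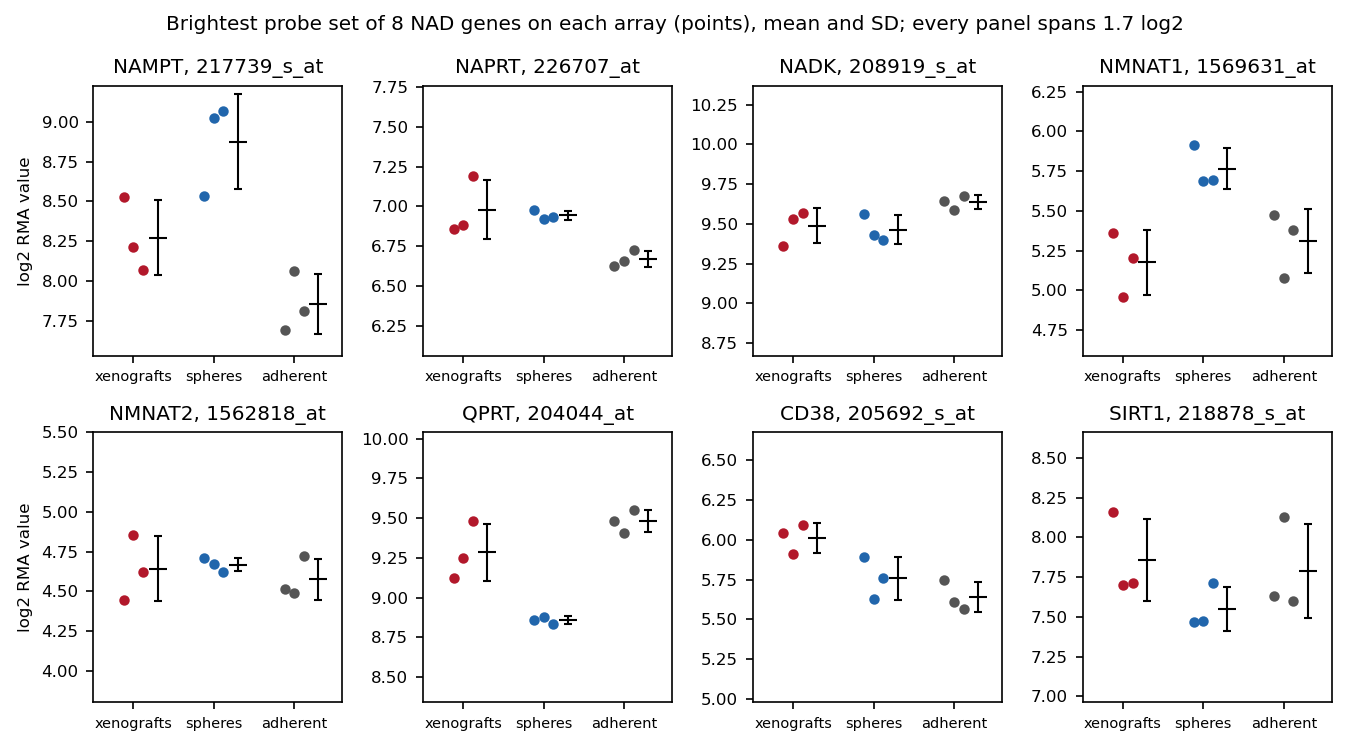
Log2 RMA value (vertical axis) on each array for the brightest probe set of the 8 members other than NNMT, with group mean and SD. Every panel spans the same range of log2 units. The sphere arrays are highest for NAMPT and NMNAT1 and lowest for QPRT, and the groups overlap for NMNAT2 and SIRT1.

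NADK, which phosphorylates NAD to NADP, gave no single answer over its 6 probe sets. The brightest, 208919_s_at, read 9.36, 9.53 and 9.57 in xenografts, 9.56, 9.43 and 9.40 in spheres, and 9.64, 9.59 and 9.67 in adherent cells, with a difference of -0.15 for xenografts and -0.17 for spheres against adherent cells and no call. Probe set 208918_s_at read 9.02, 8.92 and 8.85 in xenografts, 8.76, 9.31 and 9.15 in spheres, and 8.43, 8.52 and 8.44 in adherent cells. For it every xenograft and sphere array was above every adherent array, by 0.47 ± 0.13 in xenografts (adjusted p = 0.0223) and 0.61 ± 0.13 in spheres (adjusted p = 0.00392). The confidence intervals of the sphere difference, -0.38 to 0.03 for 208919_s_at and 0.33 to 0.89 for 208918_s_at, did not meet.

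The dimmer NADK probe sets differed among themselves too. Probe set 213607_x_at was called higher than in adherent cells in xenografts (0.34, adjusted p = 0.0419) and in spheres (0.45, adjusted p = 0.00879). Probe set 208917_x_at was called higher in xenografts against adherent cells (0.43, adjusted p = 0.0132) and against spheres (0.45, adjusted p = 0.00607), and gave -0.02 for spheres against adherent cells. Probe sets 213613_s_at and 215159_s_at passed no test. The xenograft calls against adherent cells were lost for 208918_s_at without adherent array 1, 2 or 3 or xenograft array 1 (adjusted p 0.0524 to 0.0726), for 213607_x_at without adherent array 1, 2 or 3 or xenograft array 1 or 2 (0.0549 to 0.143), and for 208917_x_at without adherent array 2 (0.0635). With the methods' t-test the sphere calls against adherent cells were lost for 208918_s_at (adjusted p = 0.0773) and 213607_x_at (0.0739). So were the xenograft calls against adherent cells for 213607_x_at (adjusted p = 0.0878) and 208917_x_at (0.105). The call of 208917_x_at in xenografts against spheres was lost with that test too (adjusted p = 0.0589). After median centring the xenograft call of 213607_x_at against adherent cells was lost (adjusted p = 0.0997). The suffixes s and x in the names mark probe sets that the array's makers expected to match several transcripts.

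CD38, a surface enzyme that cleaves NAD, had 1 probe set. It read 6.04, 5.91 and 6.09 in xenografts, 5.89, 5.62 and 5.76 in spheres, and 5.75, 5.61 and 5.56 in adherent cells. All xenograft arrays were above all others. The difference was 0.37 ± 0.10 against adherent cells (1.30-fold, adjusted p = 0.0216) and 0.26 ± 0.10 against spheres (adjusted p = 0.0672, not called). The call was lost without adherent array 2 or 3 or xenograft array 3 (adjusted p 0.0577 to 0.0875) and with the methods' t-test (0.0681). CD38 is also carried by leukocytes, whose markers are given further on.

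SIRT1, the nuclear deacetylase that uses NAD as a substrate, passed no test. It read 8.16, 7.70 and 7.71 in xenografts, 7.47, 7.47 and 7.71 in spheres, and 7.63, 8.13 and 7.60 in adherent cells, with 1 high array among the xenografts and 1 among the adherent cells. The difference was 0.07 (95% confidence interval -0.29 to 0.43) for xenografts and -0.24 (-0.60 to 0.12) for spheres against adherent cells, and 0.31 (-0.05 to 0.67) for xenografts against spheres. Intervals of this width leave room for differences of about the size that was called for CD38 or NAPRT.

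The rest of the pathway was read from lists of 57 further genes, of which 56 had a probe set of their own. Each gene was taken by its brightest probe set. In spheres against adherent cells 5 of the 56 were higher and 10 lower, where 13.5% of all genes were called higher and 16.3% lower. In xenografts against adherent cells 4 were higher and 12 lower, with 12.6% and 14.3% of all genes. In xenografts against spheres 14 were higher and 14 lower, with 25.7% and 18.3% of all genes. In spheres against adherent cells the counts were 3 and 6 without adherent array 3, and 6 were lower without sphere array 2. In xenografts against adherent cells they were 2 and 7 without adherent array 2, and 2 were higher without adherent array 3. In xenografts against spheres 9 were higher without sphere array 2 and 9 lower without sphere array 3. The median difference over the 56 was -0.02, -0.05 and -0.03, and over all genes it was -0.04, 0.08 and 0.13.

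Beside the members of the recycling and nicotinic acid routes, 0 of 5 further genes were higher and 3 were lower in spheres than in adherent cells, and 0 were higher and 2 lower in xenografts. NMRK2, a muscle kinase that turns nicotinamide riboside into the mononucleotide, had the largest fall. It read 5.06, 5.15 and 5.32 in xenografts, 5.23, 5.17 and 5.01 in spheres, and 6.98, 6.69 and 7.03 in adherent cells, a difference of -1.72 ± 0.12 for xenografts (adjusted p = 2.90e-06) and -1.76 ± 0.12 for spheres (adjusted p = 1.08e-06). The related kinase NMRK1 was lower in spheres by 0.59 and NADSYN1, which completes the route from nicotinic acid, by 0.38. PNP, which cleaves nicotinamide riboside, was lower in xenografts by 0.41.

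Among 8 further genes of synthesis from tryptophan, AFMID, which acts early in the route to quinolinic acid, rose in spheres against adherent cells and was the only one called there. It read 5.64, 6.24 and 5.95 in xenografts, 6.93, 7.61 and 7.28 in spheres, and 6.19, 5.96 and 6.05 in adherent cells, with a rise of 1.20 ± 0.18 in spheres (adjusted p = 0.000333) and a difference of -1.33 ± 0.18 for xenografts against spheres (adjusted p = 0.000127). HAAO, which makes the precursor of quinolinic acid, was higher in xenografts by 0.41 against adherent cells (adjusted p = 0.0187) and was the only one called there. IDO1, an entry enzyme of the route, read 4.82 to 5.34 over the 9 arrays and was called only in xenografts against spheres, where it was higher by 0.39 (adjusted p = 0.00527).

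Of 6 sirtuins other than SIRT1, 1 was higher and 2 were lower in spheres than in adherent cells, and 1 was higher and 0 were lower in xenografts. SIRT4, a mitochondrial sirtuin, read 6.17, 5.47 and 5.51 in xenografts, 4.55, 4.36 and 4.33 in spheres, and 5.56, 5.55 and 5.55 in adherent cells. The sphere arrays lay below the other 6, with a difference of -1.14 ± 0.16 against adherent cells (adjusted p = 0.000228). SIRT5, also mitochondrial, rose by 0.90 ± 0.12 in spheres (adjusted p = 0.000122) and by 0.66 ± 0.12 in xenografts (adjusted p = 0.00174) by its brightest probe set. Its 5 other probe sets were called in neither comparison against adherent cells. SIRT2, called lower in spheres by its brightest probe set, had another whose difference pointed the other way.

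Of 15 ADP-ribosyltransferases, which consume NAD to modify proteins, 2 were higher and 1 was lower in spheres than in adherent cells, and 0 were higher and 4 lower in xenografts. PARP1, the main enzyme of this family in DNA repair, read 11.26, 11.05 and 11.16 in xenografts, 10.60, 10.49 and 10.51 in spheres, and 11.15, 11.35 and 11.22 in adherent cells. It was lower in spheres by 0.70 ± 0.10 (adjusted p = 0.000173). TNKS, a tankyrase, was lower in xenografts than in adherent cells by 1.00 ± 0.10 (adjusted p = 5.41e-05), but 3 other TNKS probe sets gave -0.04, 0.22 and -0.07. TNKS2, the other tankyrase, was lower in xenografts by 0.49 and PARP11 by 0.61.

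The methionine cycle supplies and clears the methyl donor that NNMT uses. Of 14 genes listed for nicotinamide methylation and this cycle, which include the methyltransferases INMT and PNMT and the oxidase AOX1, 0 were higher and 3 lower in spheres than in adherent cells, and 1 was higher and 5 were lower in xenografts. MAT2A, which makes S-adenosylmethionine, read 10.60, 10.84 and 10.75 in xenografts, 11.39, 11.25 and 11.41 in spheres, and 11.20, 11.11 and 11.19 in adherent cells, a difference of -0.44 ± 0.10 for xenografts against adherent cells (adjusted p = 0.00673). Its second probe set gave 0.21. AHCY, which removes the product of methylation, averaged 11.60 ± 0.12 in xenografts, 11.45 ± 0.02 in spheres and 11.51 ± 0.10 in adherent cells (SD, n = 3 each) and was not called. MTAP, which salvages methionine, was lower by 0.59 ± 0.10 in xenografts (adjusted p = 0.00152) and AHCYL2 by 0.58 ± 0.11 (adjusted p = 0.00321). MTAP had 5 further probe sets with differences of -0.18 to 0.28 in this comparison, and a second probe set of AHCYL2 gave -0.02 (adjusted p = 0.907). NNMT has relatives that methylate other amines, and of these INMT was lower in spheres by 0.56.

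In the remaining lists, NNT, the mitochondrial transhydrogenase that couples NAD to NADP, was lower in xenografts by 0.62 ± 0.13 (adjusted p = 0.00534) and in spheres by 0.59 ± 0.13 (adjusted p = 0.00486). NAXE, which repairs damaged NADH, was higher in xenografts by 0.57 against adherent cells and 0.58 against spheres. BST1 and SARM1, which cleave NAD as CD38 does, were not called in any comparison by their brightest probe sets. A second SARM1 probe set was called higher in spheres than in adherent cells by 0.29 (adjusted p = 0.0465), where the brightest gave -0.35, and lower in xenografts than in spheres (-0.31, adjusted p = 0.0273).

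**Figure D4:**
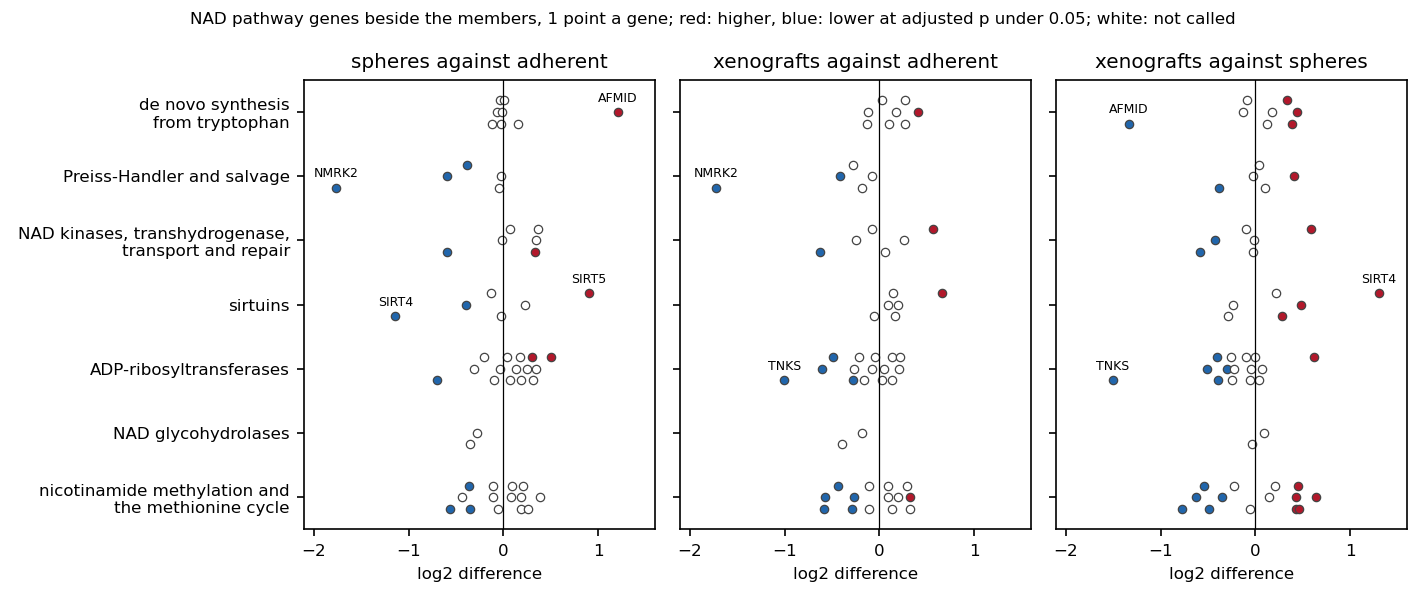
Log2 difference (horizontal axis) of 56 NAD pathway genes other than the members in the 3 comparisons, by list, 1 point per gene at its brightest probe set. Red points were called higher, blue points lower and white points were not called. NMRK2 stands apart at -1.76 in spheres and -1.72 in xenografts, both against adherent cells.

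The genes whose values most resembled those of NNMT were found by the root mean square difference over the 9 arrays, after the mean of each gene had been removed. Over 19774 genes the median of this measure was 2.23. The 6 closest were AXL at 0.16, MAMDC2 at 0.24, PKIB at 0.39, F2RL2 at 0.53, IL11 at 0.56 and EPB41L4A at 0.58. AXL, a receptor tyrosine kinase, read 4.09, 4.19 and 4.29 in xenografts, 8.74, 8.87 and 8.82 in spheres, and 9.22, 9.20 and 9.20 in adherent cells, in the same order of groups as NNMT and with no overlap. IL11, a cytokine, read 3.97, 4.03 and 4.37 in xenografts, 7.46, 7.72 and 7.64 in spheres, and 7.61, 7.63 and 7.72 in adherent cells, and its spheres overlapped its adherent cells. F2RL2, a protease-activated receptor, spread more among xenografts, with 2.20, 4.10 and 3.58. The measure compares levels in 3 groups and mainly reflects the xenograft arrays.

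**Figure D5:**
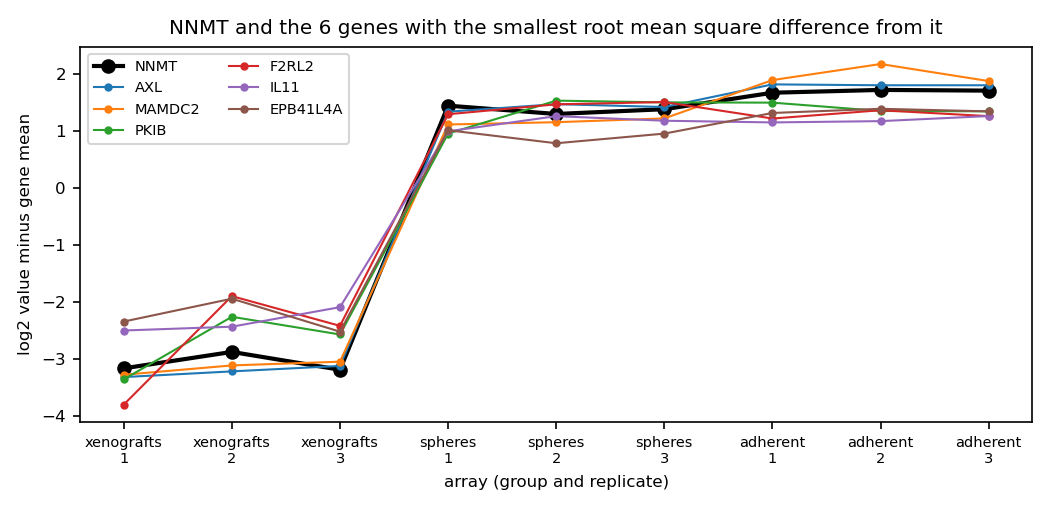
Log2 value minus the mean of the gene (vertical axis) on each of the 9 arrays for NNMT (black) and the 6 genes with the smallest root mean square difference from it. All 7 lines are low on the 3 xenograft arrays and high on the 6 culture arrays.

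Markers of other cells were read beside these results because a xenograft can hold host cells. Of 10 fibroblast markers, 5 were higher and 1 lower in xenografts than in adherent cells (median 0.62). In that comparison 12.6% of all genes were called higher and 14.3% lower. Their summed level (log2) was 10.84 to 11.56 across xenograft arrays, 10.68 to 10.92 across sphere arrays and 10.53 to 10.62 across adherent arrays. The differences of the 10 markers against adherent cells ran from -0.81 to 2.82. The largest was that of LUM, a matrix proteoglycan. LUM averaged 7.11 ± 1.04 in xenografts, 4.11 ± 0.53 in spheres and 4.29 ± 0.20 in adherent cells (SD, n = 3 each). NNMT was low on the same xenograft arrays. How mouse RNA binds the human probes for NNMT or for these markers was not measured, and the part of host cells was not tested.

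Of 7 markers of leukocytes and macrophages, 1 was higher and 0 were lower in xenografts than in adherent cells. Over all genes 12.6% were called higher and 14.3% lower. The differences of the 7 markers ran from 0.01 to 0.66, with a median of 0.19. Their summed level was 7.28 to 7.45 in xenografts, 6.88 to 7.05 in spheres and 6.86 to 7.09 in adherent cells. The mean level of the 7 was 3.99 to 4.15 across xenograft arrays, 3.75 to 3.90 across sphere arrays and 3.75 to 3.90 across adherent arrays. By both measures every xenograft array lay above every culture array. Log2 values of this kind do not reach 0, and levels this low were also given by genes of other tissues. The part of host cells in the CD38, NAPRT and NADK differences was not tested.

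Of 6 endothelial markers 1 was higher in xenografts than in adherent cells. Of 5 adipocyte markers 1 was higher, and none of either list was lower. The shares over all genes were 12.6% higher and 14.3% lower, so single calls in lists this short say little. The summed level of the endothelial markers was 7.07 to 7.44 in xenografts, 6.94 to 7.22 in spheres and 6.97 to 7.12 in adherent cells, and that of the adipocyte markers was 6.91 to 6.96, 6.67 to 6.87 and 6.61 to 6.78 in the same order. Of the 3′ to 5′ differences that bear on RNA quality, that of ACTB was higher in spheres, with no overlap, and for GAPDH the groups overlapped. The 3′ signal of ACTB exceeded its 5′ signal by 2.48 ± 0.23 in xenografts, 3.20 ± 0.09 in spheres and 2.39 ± 0.30 in adherent cells (SD, n = 3 each), and that of GAPDH by 0.53 ± 0.11, 0.62 ± 0.05 and 0.54 ± 0.13. The part of RNA quality in the sphere differences of NNMT, NAMPT, NMNAT1, NADK and QPRT was not tested.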

How the data were processed

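Rh30 RNA from xenografts, spheres and adherent cells was hybridised to 1 array each, 3 arrays per group, described by the study as biological triplicates. The authors normalized the arrays by RMA, which corrects background, equalises the distributions and summarises probes, and deposited log2 values, used here as given. The RMA version is not given in the sources used here. Equalising makes differences relative to the other genes of an array, but the values as given kept unlike spreads. The largest upper quartile among xenograft arrays, 6.89, was below the smallest among culture arrays, 7.02. For the lower quartile the order was reversed, with a smallest xenograft value of 3.36 and a largest culture value of 3.30. In xenografts against adherent cells, probe sets as bright as QPRT 204044_at had a median difference of -0.13. Those as dim as NAPRT 226708_at had 0.13.

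After 62 control probe sets were set aside, 54613 entered a linear model with 1 mean per group (R 4.3.3; lmFit, then eBayes of limma 3.58.1; 6 residual degrees of freedom). The Benjamini-Hochberg adjustment ran across all of these probe sets, and a call needed an adjusted p under 0.05. Intervals are at 95% and unadjusted. Of the probe sets, 41091 had 1 gene symbol, 1801 several and 11721 none, and a gene stands for its brightest probe set with 1 symbol. The methods of the study name no test for the arrays. The fit was tested on simulated data.

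The members, lists and tests were chosen with earlier results of these data known. Named in the text are all member probe sets, up to 4 called genes per wider list and direction, and the 6 genes closest to NNMT. Uncalled and disagreeing probe sets that are also named were chosen after their values were seen. Alternatives were quantile normalization, median centring, the methods' t-test, a filter that kept the brighter probe sets, genes as the average of their probe sets, a robust fit with a variance trend, a replicate block, fits on 2 groups only and each array left out in turn. The number of arrays limits the precision.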

Additional observations from a re-analysis of the deposited data

How the results depend on the processing

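Over the member probe sets, NNMT in xenografts left out, 918 values under an alternative could be set beside the value in the text, of which 791 kept direction and call, 86 lost the call with the same direction, 17 gained it and 24 changed sign. The 24 belong to 12 values, and 0 of them were called in the text or under the alternative. The rises of NAMPT and the falls of QPRT in spheres against adherent cells kept their calls in all 13 alternatives. With the methods' t-test, which takes the spread of each probe set from the compared arrays alone, the probe sets of the 8 members other than NNMT called higher numbered 5 in spheres and 1 in xenografts when each was set against adherent cells, and 1 in xenografts set against spheres, with 3 called lower there. After median centring 4 were called higher in xenografts against adherent cells, with 7 in the text. With genes taken as the average of their probe sets, the pathway genes called lower were 6 in spheres and 7 in xenografts against adherent cells. The cause of the last 2 shifts was not tested. Over all genes, xenografts against adherent cells gave 2500 higher and 2829 lower, 3015 and 2111 after quantile normalization, and 1836 and 3252 after median centring.

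With each array left out in turn, the member probe sets called higher were 6 to 8, 1 to 6 and 2 to 6 in spheres against adherent cells, xenografts against adherent cells and xenografts against spheres, and those called lower 2, 1 to 2 and 5 to 6. Pathway genes called higher were 3 to 5, 2 to 4 and 9 to 14 in the same order, and those called lower 6 to 9, 7 to 11 and 9 to 14. Nothing shows that replicate numbers pair the arrays, since deviations of arrays with the same number correlated between -0.18 and 0.18. With the replicate number as a block, 8, 5 and 6 member probe sets were called higher and 2, 1 and 6 lower, and the falls of NNMT in spheres had an adjusted p of 0.0598 for 202237_at and 0.0581 for 202238_s_at. With quantile normalization that of 202237_at had 0.0767. Of the values that changed sign, quantile normalization gave, for xenografts against adherent cells, -0.00403 for NMNAT1 probe set 229852_at, -1.08e-05 for NMNAT2 probe set 1562818_at and -0.0932 for NMNAT2 probe set 209755_at (-0.0458 after median centring), and 0.0551 for NADK probe set 213607_x_at against spheres. With each array left out, values around 0 ran from -0.00896 to 0.101 (NAPRT 226708_at), -0.194 to 0.0236 (NADK 213613_s_at), -0.0766 to 0.0330 (NADK 208917_x_at) and -0.201 to 0.162 (NADK 215159_s_at) in spheres against adherent cells. In xenografts against adherent cells they ran from -0.00979 to 0.178 (NMNAT1 229852_at), -0.0404 to 0.164 (NMNAT2 1562818_at), -0.115 to 0.155 (NMNAT2 209755_at) and -0.0807 to 0.241 (SIRT1 218878_s_at), and against spheres from -0.0714 to 0.0953 (NAPRT 226707_at), -0.0160 to 0.0876 (NADK 208919_s_at) and -0.132 to 0.0721 (NMNAT2 1562818_at). Dim probe sets limit what can be said of NMNAT2, of the NAPRT probe set 226708_at and of NNMT in xenografts.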
